A study of Homo sapiens with 9 samples.

Results

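The genes of the cytosolic ribosomal proteins were followed in HT29 cells in which DNMT1 or DNMT3B had been knocked down. They were taken from the count table by symbol. The rule kept RPL and RPS symbols of the form RPL28, RPL22L1 or RPS4X, the stalk genes RPLP0, RPLP1 and RPLP2, and RPSA, and it left out the RPS6K kinases. It found 84 of 25886 symbols, of which 81 passed the filter on low counts among 16660 genes tested. The 84 genes comprised 31 of the small subunit, 43 of the large subunit, 3 of the P stalk and 7 paralogues of core genes. FAU and RPL36AL also encode ribosomal proteins but fall outside the rule, so they are described with the related genes at the end.

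HT29 is an established human colorectal cancer line. The 3 groups, with 3 libraries each, were DNMT1 knockdown, DNMT3B knockdown and Control cells. Knockdown was stable, by lentivirus, and all groups, Control included, had been selected with puromycin. The labels do not say how many hairpins were used, whether a line was a single clone or whether replicates were separate cultures, so each p-value rests on library-to-library variation that could be purely technical. The series was built around lower DNMT1 and DNMT3B under proteasome inhibition, and its comparisons ask what the loss of either methyltransferase does to the transcriptome.

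A ribosome joins a small subunit, which reads the mRNA, to a large subunit, which forms the peptide bond and holds the exit tunnel, and each subunit is built from rRNA and a fixed set of proteins. Most ribosomal protein mRNAs begin with a C and an unbroken run of pyrimidines, the terminal oligopyrimidine (TOP) start, through which mTORC1 and LARP1 control their translation and stability. Ribosome production is high in colorectal cancer cells, and ribosomal proteins that are not built into subunits can bind MDM2, a ubiquitin ligase, and hold back its activity.

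The start sequences of a few members are shown because they carry the feature the family is known for. Paralogues such as RPS27L and RPL7L1 lack it at their annotated start. Each is a window of 60 bases from the RefSeq promoter table (GRCh38.p14), read on the gene's own strand, with 40 bases before the annotated start and 20 from the start on. Capitals mark the pyrimidine run that begins at a C at the start.
RPL28, chr19:55385892-55385951, plus strand: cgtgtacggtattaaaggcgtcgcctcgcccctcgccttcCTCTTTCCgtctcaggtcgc
RPL38, chr17:74203638-74203697, plus strand: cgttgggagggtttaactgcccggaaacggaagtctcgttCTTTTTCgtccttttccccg
RPS24, chr10:78033823-78033882, plus strand: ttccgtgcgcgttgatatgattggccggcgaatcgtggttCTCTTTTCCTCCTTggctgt
RPS21, chr20:62387063-62387122, plus strand: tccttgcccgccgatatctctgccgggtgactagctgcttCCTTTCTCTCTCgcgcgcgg
RPS19, chr19:41860215-41860274, plus strand: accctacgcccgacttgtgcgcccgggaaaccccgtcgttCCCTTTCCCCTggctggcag
RPL39, chrX:119791611-119791670, minus strand: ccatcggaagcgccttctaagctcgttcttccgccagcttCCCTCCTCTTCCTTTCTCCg
RPL22L1, chr3:170870176-170870235, minus strand: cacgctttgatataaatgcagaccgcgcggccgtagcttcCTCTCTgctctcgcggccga
RPS27L, chr15:63157458-63157517, minus strand: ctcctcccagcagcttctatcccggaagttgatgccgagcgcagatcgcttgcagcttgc
RPL7L1, chr6:42879576-42879635, plus strand: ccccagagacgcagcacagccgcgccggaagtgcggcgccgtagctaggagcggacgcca

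RPL39 has the longest run of these, 19 bases, RPS24 has 14 and RPS21 has 12. RPL22L1, the paralogue of RPL22, has a run of 6 bases, whereas RPS27L and RPL7L1 start with G, as do RPL26L1 and RPL10L. Of the 67 members with an entry in the table, 44 (65.7%) start with C and continue in pyrimidines for at least 4 bases in all, against 1041 of 18785 promoters of all genes (5.54%). The same 300-base promoters hold a median of 23 CpG sites over the members (2 to 38), against 20 over all genes, and their median ratio of observed to expected CpG is 0.9, against 0.73.

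The targeted genes followed the labels in each library. DNMT1 stood at 248, 250 and 257 CPM in DNMT1 knockdown, against 448, 468 and 457 CPM in Control. DNMT3B stood at 32.8, 27.9 and 30.8 CPM in DNMT3B knockdown, against 60.9, 60.4 and 62.6 CPM in Control. CPM are counts per 1e6 of the TMM-scaled library. Library totals were 23.4 to 24.2 M counts (M is 1e6) in DNMT1 knockdown, 18.8 to 26 in DNMT3B knockdown and 26.9 to 33.7 in Control. Of 12 colon epithelial markers, 8 reached 1 CPM in each group, EPCAM and CDX2 among them, while CDX1 and CEACAM5 had 0 counts in all Control libraries. Of 13 markers of stromal, blood and endothelial cells, 2 reached 1 CPM in each group and DCN and COL1A2 were at 0 in every group. Their summed level was 21.8 to 26.8 CPM in DNMT1 knockdown, 32.1 to 33.1 in DNMT3B knockdown and 19.3 to 23.6 in Control, and its part in the results below was not tested.

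One library stood apart in the level of the family. DNMT3B knockdown replicate 2, the shallowest library, had a median log2 ratio to the mean Control level of 0.22 over the 81 tested members, with 74 above that mean. Replicates 1 and 3 of the same group had medians of -0.01 and 0.1, with 38 and 60 members above. The DNMT1 knockdown libraries had medians of 0.02, -0.02 and -0.03, and the Control libraries -0.01, -0.02 and 0.04, where 70 members lay above the mean in Control replicate 3. Counts in DNMT3B knockdown are therefore also given without replicate 2, and named genes of DNMT3B knockdown against Control kept their call without it unless stated.

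The family as a whole took about the same share of library counts in DNMT1 knockdown as in Control, and on average a larger and more scattered part in DNMT3B knockdown, where the libraries overlapped Control. It held 3.09, 3.01 and 2.97% of library counts in DNMT1 knockdown, 3.04, 3.47 and 3.19% in DNMT3B knockdown and 2.97, 2.99 and 3.08% in Control. The DNMT1 knockdown and Control libraries overlapped throughout, and DNMT3B knockdown replicate 1 lay among the Control libraries while the other 2 lay above them. The group means were 3.02 ± 0.0618% in DNMT1 knockdown, 3.23 ± 0.216% in DNMT3B knockdown and 3.01 ± 0.0564% in Control (SD, n = 3 each), and the DNMT3B knockdown mean was 3.12% without replicate 2. Counting error was far smaller, with 95% Wilson intervals of at most 0.00828 percentage points to either side. In such bulk samples, fewer cells that express a gene and less RNA per cell cannot be told apart.

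**Figure D1:**
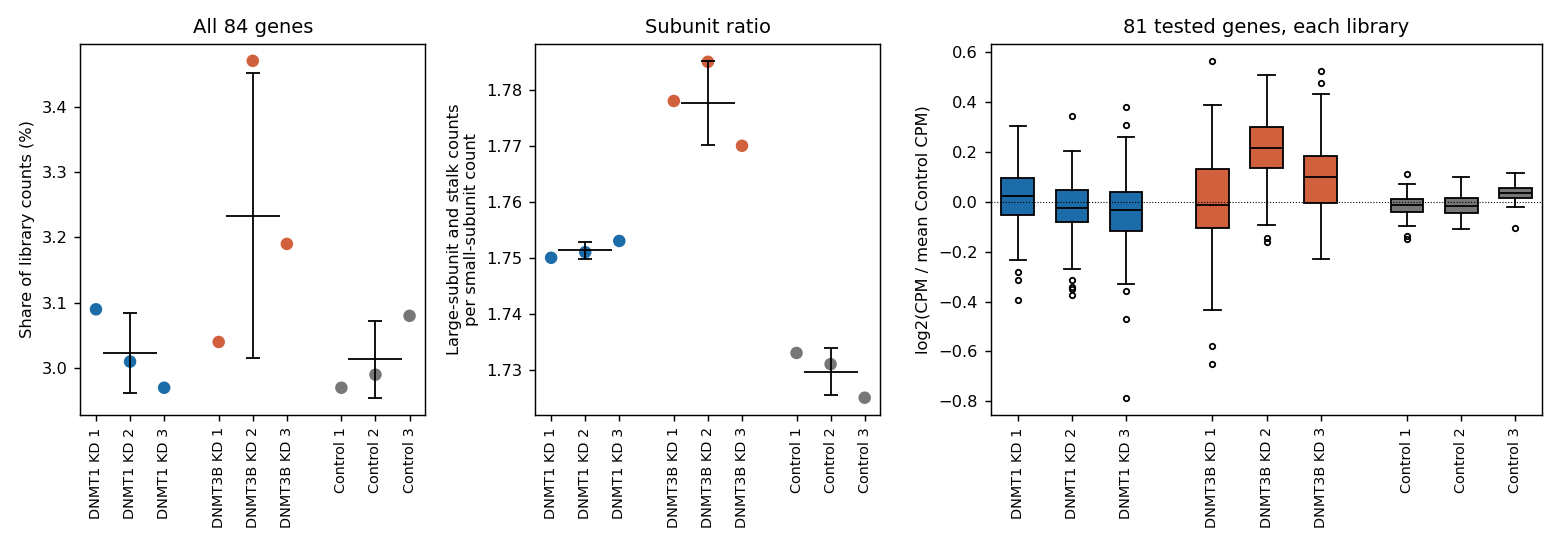
Left, percent of each library's counts in the 84 ribosomal protein genes; middle, counts of large-subunit and stalk genes per count of small-subunit genes (neither axis starts at 0); right, boxes of log2(CPM / mean Control CPM) over the 81 tested genes. Points are libraries and black bars mean ± SD of 3; DNMT3B knockdown replicate 2 has the highest share (3.47%), and the subunit ratio is 1.77 to 1.785 in DNMT3B knockdown, 1.75 to 1.753 in DNMT1 knockdown and 1.725 to 1.733 in Control.

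The balance between the subunits differed slightly between the groups. Large-subunit and stalk genes together had 1.75, 1.751 and 1.753 counts per small-subunit count in DNMT1 knockdown, 1.778, 1.785 and 1.77 in DNMT3B knockdown and 1.733, 1.731 and 1.725 in Control. The 3 groups did not overlap in this ratio, which is given without a test because it is a sum over the members. Without DNMT3B knockdown replicate 2, the other replicates of its group, at 1.778 and 1.77, still lay above all other libraries.

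In DNMT3B knockdown most called ribosomal protein genes rose, by at most 1.37-fold, and a larger share rose in the large subunit than in the small one, a difference that was not tested. Against Control, 38 of the 81 tested members rose and 7 fell by edgeR (adjusted p below 0.05 over all 16660 genes), where 47.7% of all tested genes were called, 23.1% higher and 24.6% lower. The members' median log2 fold change was 0.10, against 0.00 over all tested genes. By subunit, 24 of 43 large-subunit genes (55.8%) rose and 1 fell, 13 of 31 small-subunit genes (41.9%) rose and 5 fell, and of the 3 stalk genes RPLP1 fell. Without replicate 2 of this group, 29 members rose (35.8%) and 15 fell (18.5%), with a median of 0.05, where 22.2% of all genes tested were higher and 22.9% lower. By subunit, 20 large-subunit genes then rose and 3 fell, 8 small-subunit genes rose and 8 fell, and all 3 stalk genes fell. With the libraries scaled to the summed counts of the family in place of TMM, which shifts every log2 fold change in this comparison by -0.09, 12 rose and 13 fell.

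The 5 largest called rises were in RPL37, RPL38, RPS27L, RPL32 and RPL27. RPL37, a small zinc-binding protein of the large subunit, stood at 303, 329 and 322 CPM in DNMT3B knockdown, against 221, 238 and 236 CPM in Control. The groups were well apart, and the gene was 1.37-fold higher in the knockdown (log2 fold change 0.46 ± 0.038, SE, edgeR adjusted p = 1.35e-11). RPL38, whose reduced dose in mice alters the translation of Hox mRNAs and the pattern of the skeleton, stood at 220, 245 and 238 CPM in DNMT3B knockdown, against 159, 189 and 181 CPM in Control (0.41 ± 0.046, adjusted p = 6.39e-09). RPL32, a large-subunit protein, stood at 458, 495 and 463 CPM in DNMT3B knockdown, against 374, 376 and 376 CPM in Control (0.33 ± 0.033, adjusted p = 1.02e-09). The Control libraries of RPL32 were within 2 CPM of each other, and all 3 knockdown libraries lay above them. RPL27, mutated in rare cases of Diamond-Blackfan anaemia, a failure of red cell production caused by ribosomal protein mutations, stood at 210, 248 and 231 CPM in DNMT3B knockdown, against 173, 188 and 192 CPM in Control (0.32 ± 0.045, adjusted p = 6.03e-07). RPS27L is described with the paralogues.

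Further members whose libraries lay wholly above Control in DNMT3B knockdown were RPS24 and RPL12. RPS24, a small-subunit protein also mutated in Diamond-Blackfan anaemia, averaged 435 ± 34.4 CPM in DNMT3B knockdown and 352 ± 19.5 CPM in Control (SD, n = 3 each, log2 fold change 0.31, edgeR adjusted p = 4.65e-07). RPL12, which forms the base on which the P stalk sits, averaged 620 ± 38.7 CPM in DNMT3B knockdown and 514 ± 6.18 CPM in Control (0.27, adjusted p = 6.46e-07). In all, 30 of 81 members had every DNMT3B knockdown library above every Control library and 2 had every library below, shares of 37.0% and 2.47%. Over all tested genes these shares were 26.6% and 27.6%. Without replicate 2, 33 of 81 members lay wholly above and 12 wholly below Control, against 5310 and 5256 of 16859 genes tested in that fit. RPS24 and RPL12 fall outside the rule for named genes and were chosen after their values were seen. The 38 rises ran from 0.10 to 0.46 on the log2 scale, and the 36 members without a call from -0.10 to 0.42, the highest being RPL36A.

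DNMT1 knockdown moved fewer members, in both directions. Against Control, 10 of 81 rose and 14 fell by edgeR, where 41.8% of all tested genes were called, 21% higher and 20.8% lower. The median log2 fold change was -0.02 over the members and 0.00 over all tested genes. Of the large-subunit genes 7 rose and 4 fell, of the small-subunit genes 3 rose and 7 fell, RPLP1 fell among the stalk genes, and the paralogues RPL7L1 and RPL22L1 fell. The shares of members higher (12.3%) and lower (17.3%) were below those of all tested genes. All DNMT1 knockdown libraries lay above all Control libraries in 15 members (18.5%) and below in 19 (23.5%), against 24.8% and 24.6% of all tested genes. With coding length in the fit, 17 rose and 14 fell, and with DESeq2, 10 rose and 8 fell. Shares of all tested genes under these settings are not given here. Scaled to the summed counts of the family, 8 rose and 11 fell, and the shift of the log2 fold changes was 0.00.

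**Figure D2:**
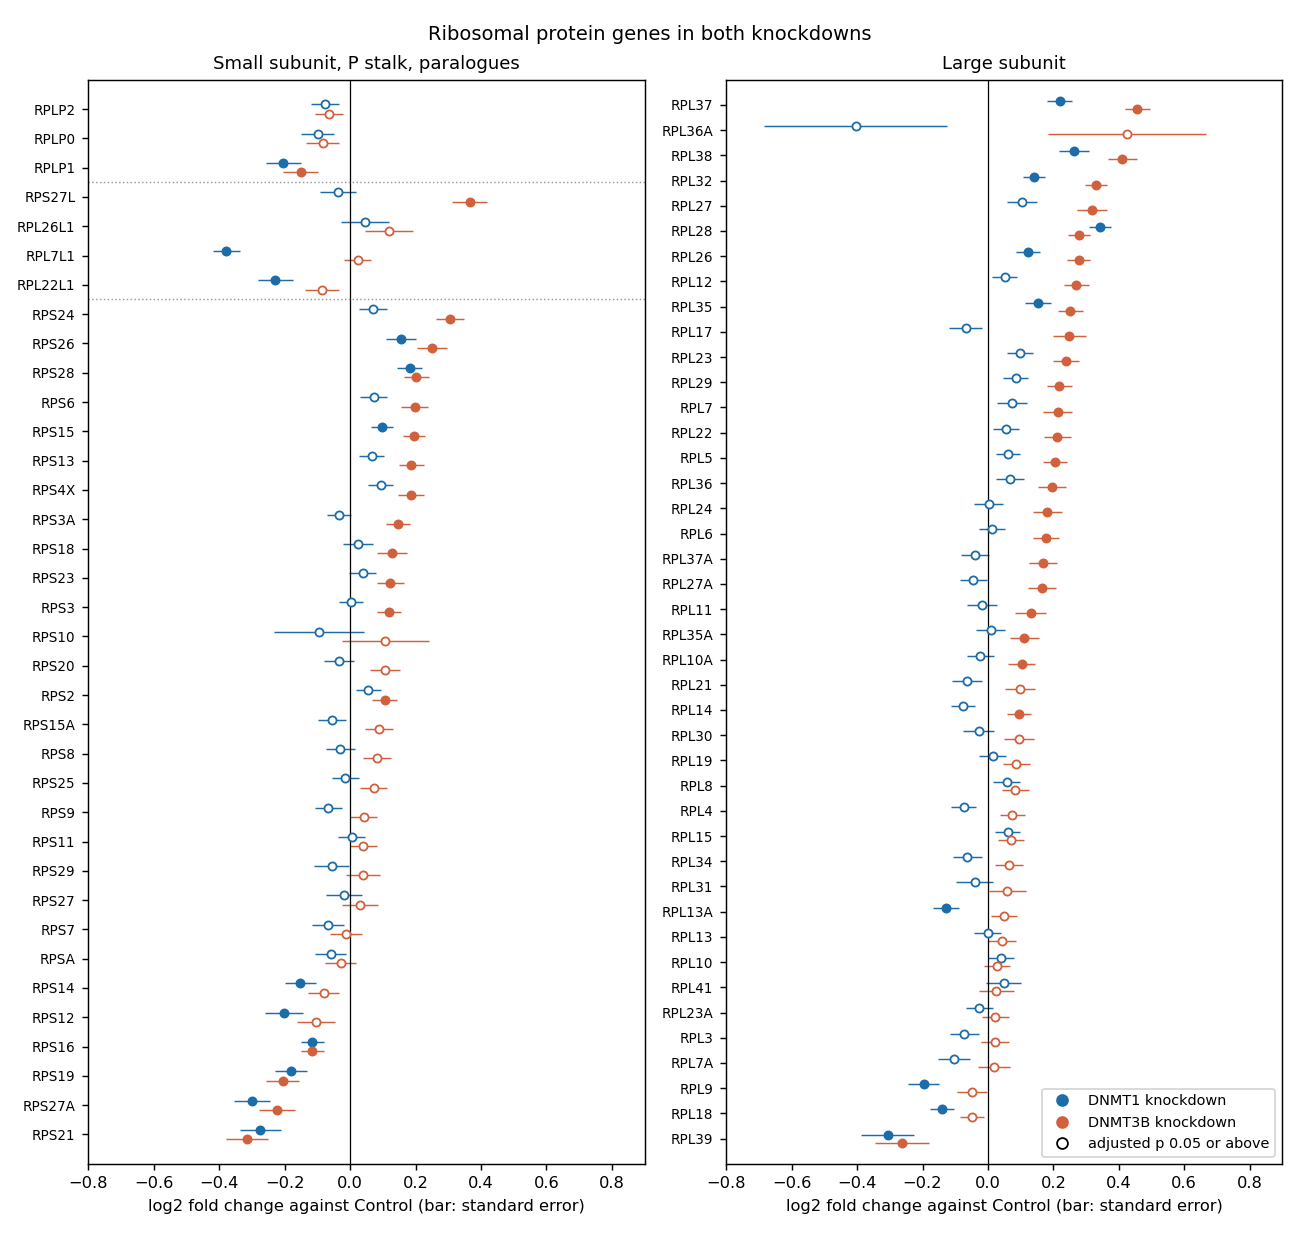
Log2 fold change against Control of 78 of the 81 tested members (points, bars are standard errors) in DNMT1 knockdown (blue) and DNMT3B knockdown (orange), ordered by the DNMT3B knockdown value within each class; open points have an edgeR adjusted p of 0.05 or above. RPL37 is at 0.46 in DNMT3B knockdown and 0.22 in DNMT1 knockdown, and RPL7L1 at 0.02 and -0.38.

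RPL28 had the largest rise in DNMT1 knockdown. It encodes a large-subunit protein that budding yeast lacks, and it stood at 688, 708 and 725 CPM in DNMT1 knockdown, 665, 701 and 664 CPM in DNMT3B knockdown and 542, 573 and 558 CPM in Control. Both knockdowns lay wholly above Control and overlapped each other. The log2 fold change was 0.34 ± 0.034 in DNMT1 knockdown (edgeR adjusted p = 9.97e-10) and 0.28 ± 0.034 in DNMT3B knockdown (adjusted p = 4.56e-08). RPL38, at 213, 203 and 218 CPM in DNMT1 knockdown, was also above all Control libraries given earlier (0.26 ± 0.046, adjusted p = 2.06e-05), as was RPL37 at 276, 256 and 277 CPM (0.22 ± 0.038, adjusted p = 2.14e-05).

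The other members called higher with each knockdown are set side by side here. Both comparisons use the same 3 Control libraries, so nothing is read from a call in both. RPS28, a small-subunit protein, averaged 154 ± 2.02 CPM in DNMT1 knockdown, 157 ± 11 CPM in DNMT3B knockdown and 136 ± 1.62 CPM in Control (SD, n = 3 each). RPS26, which lines the path of the mRNA as it leaves the small subunit, averaged 185 ± 7.01, 197 ± 12.6 and 166 ± 13.1 CPM in the same order of groups, and its libraries lay above all Control libraries in each knockdown. RPL35, which sits beside the tunnel exit, averaged 327 ± 0.74, 351 ± 23.4 and 295 ± 11.7 CPM, again without overlap with Control. Values for the rest were similar in size. Log2 fold changes in DNMT1 and DNMT3B knockdown were 0.14 and 0.33 for RPL32, 0.12 and 0.28 for RPL26, and 0.10 and 0.19 for RPS15, a small-subunit protein needed for export of the subunit from the nucleus. In DNMT1 knockdown the call of RPS15 did not hold when replicate 1 or 2 of Control was left out (adjusted p = 0.0842 and 0.0579), nor without DNMT1 knockdown replicate 2 (adjusted p = 0.0987). That of RPS26 did not hold without replicate 1 of Control (adjusted p = 0.104) or replicate 3 of DNMT1 knockdown (adjusted p = 0.0504). RPL26 shares 59.0% of its annotated exon bases with another annotated gene on the same strand, so its counts depend on how such reads were assigned.

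Among the members called lower with each knockdown, 5 of 7 were of the small subunit, to which 31 of the 81 tested members belong. As with the rises, the Control libraries are shared, and nothing is read from these joint calls. Without DNMT3B knockdown replicate 2 further members joined them, the large-subunit genes RPL9 and RPL18 among them. RPS21, a small-subunit protein, stood at 71.3, 67.6 and 63.6 CPM in DNMT1 knockdown, 54.6, 73.7 and 69.6 CPM in DNMT3B knockdown and 81.4, 76.1 and 87.3 CPM in Control. Every knockdown library lay below every Control library, with log2 fold changes of -0.27 ± 0.063 in DNMT1 knockdown (edgeR adjusted p = 0.000638, 0.0536 with DESeq2) and -0.31 ± 0.063 in DNMT3B knockdown (adjusted p = 0.000112). RPS27A, made as a fusion with ubiquitin and so also a source of ubiquitin, stood at 140, 130 and 131 CPM in DNMT1 knockdown, 122, 158 and 145 CPM in DNMT3B knockdown and 157, 160 and 177 CPM in Control. DNMT1 knockdown lay wholly below Control (-0.30 ± 0.054, adjusted p = 4.08e-05), and replicate 2 of DNMT3B knockdown overlapped it (-0.22 ± 0.055, adjusted p = 0.00105, 0.0686 with DESeq2).

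RPS19, the gene most often mutated in Diamond-Blackfan anaemia, stood at 398, 412 and 371 CPM in DNMT1 knockdown, 343, 434 and 385 CPM in DNMT3B knockdown and 443, 431 and 464 CPM in Control. It was lower in both by edgeR (log2 fold changes -0.18 and -0.21, adjusted p = 0.00415 and 0.00104) and in neither by DESeq2 (adjusted p = 0.106 and 0.0623), and replicate 2 of DNMT3B knockdown again reached into the Control range. RPS16, whose tail reaches the tRNA in the decoding site, averaged 358 ± 5.99 CPM in DNMT1 knockdown, 358 ± 13.7 CPM in DNMT3B knockdown and 388 ± 13.9 CPM in Control (SD, n = 3 each). Its fall of 0.12 in each knockdown was lost without Control replicate 3 (adjusted p = 0.089 and 0.083), and in DNMT3B knockdown also without replicate 1 (adjusted p = 0.0739). Further members called lower in DNMT1 knockdown were RPL9 (-0.20), RPS12 (-0.20), RPS14 (-0.15), RPL18 (-0.14) and RPL13A (-0.13), beside the paralogues RPL7L1 and RPL22L1. RPL9, RPS12, RPS14 and RPL18 were also called lower in DNMT3B knockdown when its replicate 2 was left out (-0.11, -0.17, -0.15 and -0.09, adjusted p = 0.0305, 0.0118, 0.00264 and 0.0236).

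RPL39, a short protein that lines the exit tunnel, had the largest called fall of the large subunit in each knockdown. It stood at 26.7, 26.1 and 26.1 CPM in DNMT1 knockdown, 20.7, 29 and 31.7 CPM in DNMT3B knockdown and 32.3, 30.1 and 35 CPM in Control. The DNMT1 knockdown libraries lay below Control (-0.31 ± 0.082, edgeR adjusted p = 0.00284, 0.119 with DESeq2). In DNMT3B knockdown the groups overlapped, and the fall of 0.26 (adjusted p = 0.00837) was lost without replicate 1 (-0.09, adjusted p = 0.247) and without Control replicate 3 (-0.20, adjusted p = 0.0751).

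RPLP1, the stalk gene that was called, depended on the same libraries. With RPLP2 it forms the pairs of acidic proteins that RPLP0 anchors to the ribosome and that call in the elongation factors. RPLP1 stood at 300, 302 and 286 CPM in DNMT1 knockdown, 263, 333 and 326 CPM in DNMT3B knockdown and 321, 342 and 360 CPM in Control. The log2 fold change was -0.20 ± 0.053 in DNMT1 knockdown (edgeR adjusted p = 0.00221, 0.0763 with DESeq2) and -0.15 ± 0.053 in DNMT3B knockdown (adjusted p = 0.018), and the second was lost without replicate 1 (-0.05, adjusted p = 0.364) and without Control replicate 3 (-0.11, adjusted p = 0.148). RPLP0 averaged 1070 ± 44.1 CPM in DNMT1 knockdown, 1080 ± 135 CPM in DNMT3B knockdown and 1150 ± 56 CPM in Control, with no call in either comparison (adjusted p = 0.122 and 0.182). RPLP2 averaged 278 ± 8.47, 281 ± 22.7 and 294 ± 13 CPM in the same order, also without a call. Without replicate 2 of DNMT3B knockdown, RPLP0 and RPLP2 were called lower there (-0.18 and -0.12).

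**Figure D3:**
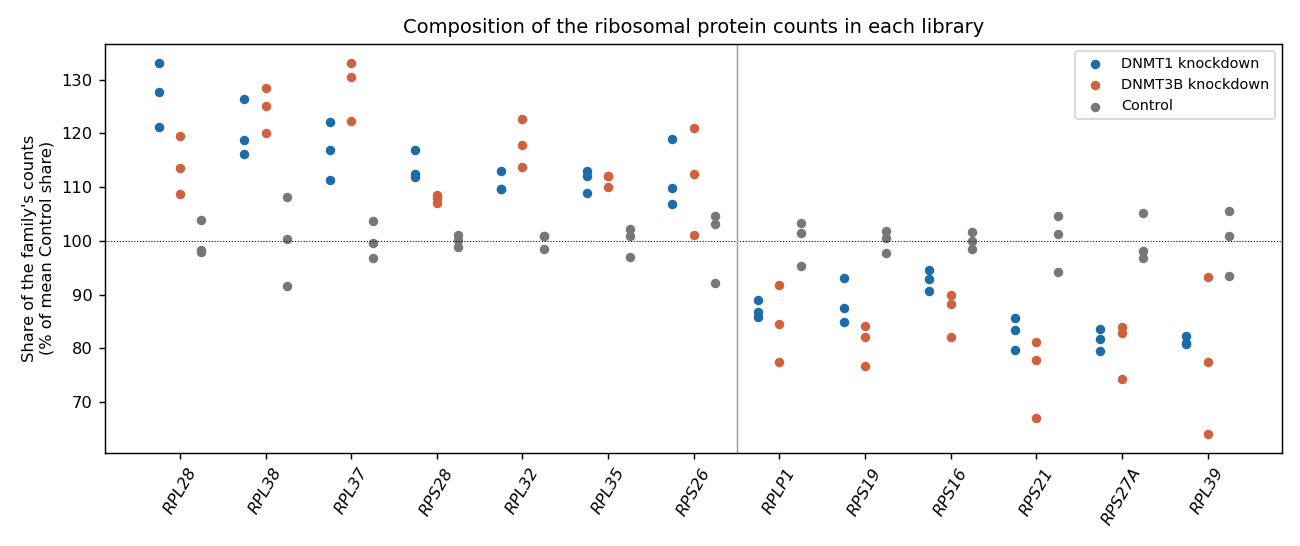
Share of the family's summed counts taken by each of 13 members in each library, as percent of the mean share in the 3 Control libraries (vertical axis, not starting at 0); columns of points are DNMT1 knockdown, DNMT3B knockdown and Control from left to right. The 7 members to the left of the line are among the 10 called higher, and the 6 to the right among the 7 called lower, against Control in each knockdown, so their direction is fixed by that choice; the spread of DNMT3B knockdown around RPL39 and RPS21 is wider than that of DNMT1 knockdown.

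Between the knockdowns every member called by edgeR with all libraries was lower in DNMT1 knockdown. DNMT1 knockdown was lower than DNMT3B knockdown in 44 of 81 members and higher in 0 by edgeR, where 45.2% of all tested genes were called, 24.3% higher and 20.9% lower. DESeq2 called 0 members higher and 32 lower, and limma-voom 0 and 44, without the shares of all tested genes under these tools being given here. The median log2 difference was -0.11 over the members and 0.00 over all tested genes. Of the large-subunit genes 30 of 43 (69.8%) were lower, of the small-subunit genes 11 of 31 (35.5%), of the tested paralogues 3 of 4, and no stalk gene was called. In 31 members (38.3%) all DNMT1 knockdown libraries lay below all DNMT3B knockdown libraries and in 0 above, against 24.5% and 27.7% of all tested genes. The count rested in part on DNMT3B knockdown replicate 2, without which 22 were lower and 3 higher, and on DNMT1 knockdown replicate 3, without which 29 were lower. Scaled to the summed counts of the family, which shifts each log2 difference by 0.1, 4 members were lower and 1 higher.

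The rule for the largest differences named RPL36A, RPS27L, RPL7L1 and RPL17. RPL17, a protein at the tunnel exit, stood at 35.8, 35.8 and 34.9 CPM in DNMT1 knockdown and 45.3, 47.4 and 40.6 CPM in DNMT3B knockdown (Control 37.7, 36.3 and 37.6 CPM). The knockdowns did not overlap (log2 difference -0.32 ± 0.051, edgeR adjusted p = 5.45e-06), and the call held when the family was used for scaling (-0.23, adjusted p = 0.00987). RPL17 shares 91.0% of its annotated exon bases with a read-through transcript to its neighbour, so its level depends on how such reads were assigned. RPL36A was the lowest tested member, with 0.66, 0.554 and 0.416 CPM in DNMT1 knockdown and 1.06, 0.754 and 1.03 CPM in DNMT3B knockdown. It also shares 77.6% of its exon bases with a read-through transcript, and its difference of -0.83 ± 0.27 (adjusted p = 0.013) was lost in DESeq2 (adjusted p = 0.0826) and without DNMT1 knockdown replicate 3, DNMT3B knockdown replicate 1 or DNMT3B knockdown replicate 3 (adjusted p = 0.0756, 0.0578 and 0.0527).

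The paralogues are set beside the core genes they resemble, without a test between them. RPS27L, the paralogue of RPS27, stood at 31.9, 31.1 and 29.9 CPM in DNMT1 knockdown, 37.6, 43.0 and 42.6 CPM in DNMT3B knockdown and 33.3, 30.2 and 31.7 CPM in Control. All DNMT3B knockdown libraries lay above the other 6, a 1.29-fold rise over Control (log2 fold change 0.37 ± 0.053, edgeR adjusted p = 8.05e-07), while the DNMT1 knockdown was not distinguishable from Control (-0.04, adjusted p = 0.612). RPS27 itself averaged 116 ± 3.51 CPM in DNMT1 knockdown, 121 ± 15.7 CPM in DNMT3B knockdown and 118 ± 6.84 CPM in Control, with no call, though it was called higher in DNMT3B knockdown without replicate 1 of that group (0.14, adjusted p = 0.00745). RPS27L counts were 36.7, 32.7 and 33.3% of RPS27 counts in DNMT3B knockdown, against 27.4, 27.6 and 25% in DNMT1 knockdown and 28.7, 27.0 and 25.3% in Control.

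RPL7L1, the human counterpart of a yeast factor of large-subunit assembly and a relative of RPL7, had the largest called fall in DNMT1 knockdown. It stood at 166, 162 and 149 CPM in DNMT1 knockdown, 197, 222 and 210 CPM in DNMT3B knockdown and 212, 202 and 205 CPM in Control. The DNMT1 knockdown lay below all other libraries and was 1.3-fold lower than Control (log2 fold change -0.38 ± 0.041, edgeR adjusted p = 4.68e-09), and it was also lower than DNMT3B knockdown (-0.40 ± 0.041, adjusted p = 1.35e-09). RPL7 itself was called higher in DNMT3B knockdown (0.21, adjusted p = 0.000221) and not in DNMT1 knockdown (0.07, adjusted p = 0.198). RPL7L1 counts were 38.6, 40.7 and 38.1% of RPL7 counts in DNMT1 knockdown, 48.6, 45.4 and 47.2% in DNMT3B knockdown and 55.1, 54.3 and 51.4% in Control, without overlap between the 3 groups.

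RPL22L1, which the RPL22 protein is known to repress in mouse, averaged 58.3 ± 3.43 CPM in DNMT1 knockdown, 64.7 ± 7.26 CPM in DNMT3B knockdown and 68.3 ± 1.33 CPM in Control (SD, n = 3 each). It fell in DNMT1 knockdown (-0.23 ± 0.053, edgeR adjusted p = 0.000722) and did not pass the test in DNMT3B knockdown (-0.09, adjusted p = 0.18), where it was called without replicate 2 (-0.15, adjusted p = 0.0155). RPL22 was at 175 ± 11.8 CPM in DNMT3B knockdown, against 151 ± 5.7 CPM in Control (0.21, adjusted p = 5.47e-05), and at 156 ± 4.56 CPM in DNMT1 knockdown. RPL22L1 counts were 39.3, 36.6 and 36.0% of RPL22 counts in DNMT1 knockdown and 35, 38.3 and 37.5% in DNMT3B knockdown. In Control they were 47.5, 43.6 and 45.1%, above every knockdown library.

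RPL26L1 counts were 3.91 to 4.29% of RPL26 counts in DNMT1 knockdown, 3.6 to 4.06% in DNMT3B knockdown and 4.07 to 4.44% in Control, and it was not called against Control. The muscle paralogue RPL3L had 4 to 11 counts per library. RPL10L and RPL39L, known from testis, had 0 counts in every library, which allows up to 3 counts, or 0.0891 to 0.16 CPM depending on the library. These 3 paralogues did not pass the filter on low counts.

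**Figure D4:**
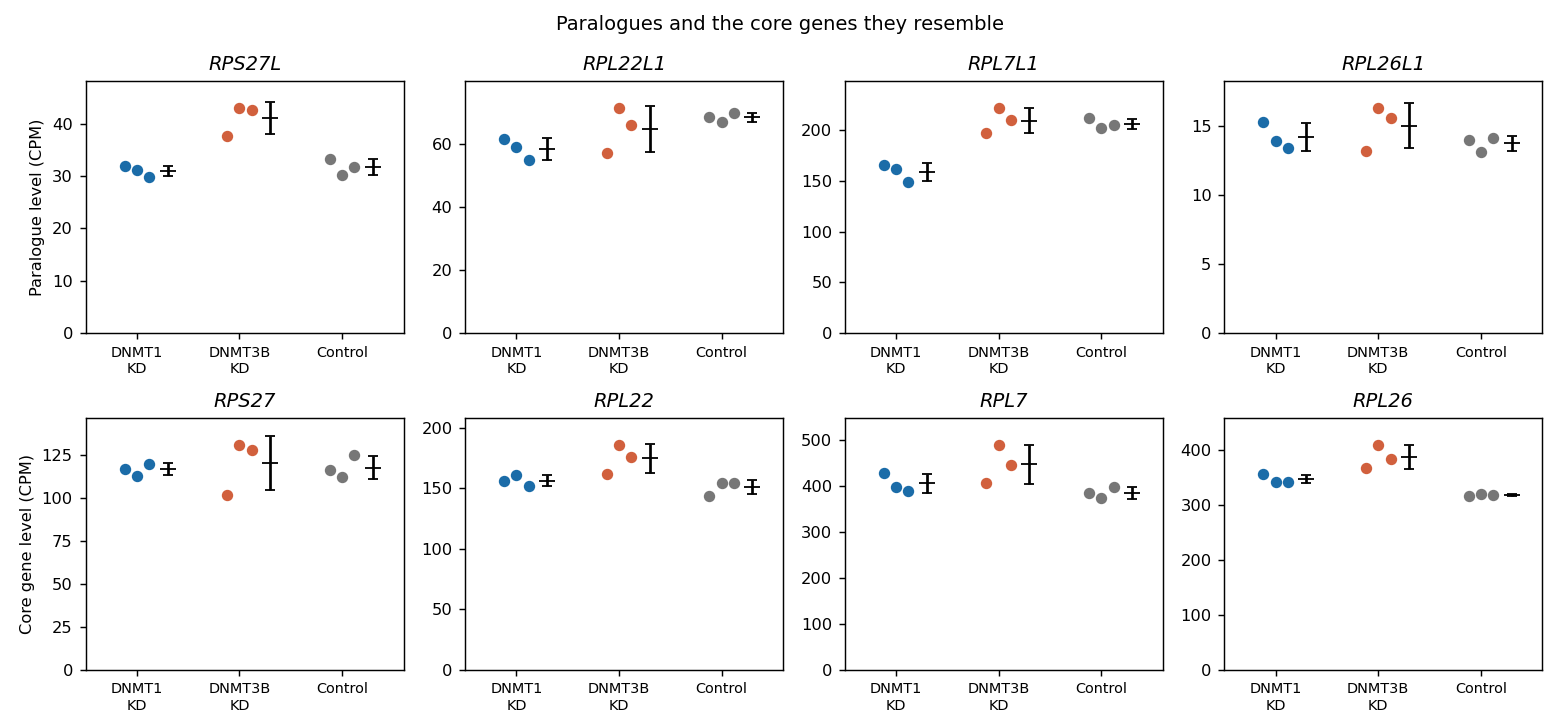
Levels in CPM (vertical axes, starting at 0) of 4 paralogues (top) and the core genes they resemble (bottom) in DNMT1 knockdown, DNMT3B knockdown and Control from left to right; points are libraries and black bars mean ± SD of 3. RPS27L averages 41.1 CPM in DNMT3B knockdown, 31 in DNMT1 knockdown and 31.8 in Control, and RPL7L1 159 CPM in DNMT1 knockdown, 210 in DNMT3B knockdown and 206 in Control.

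Members known for roles outside the ribosome were looked at one by one. RPL5 and RPL11, which with a small rRNA form the complex that binds MDM2, were both called higher in DNMT3B knockdown. RPL5 stood at 521, 583 and 533 CPM in DNMT3B knockdown, against 480, 473 and 467 CPM in Control, without overlap (log2 fold change 0.20 ± 0.036, edgeR adjusted p = 2.28e-05). RPL11 stood at 331, 411 and 371 CPM in DNMT3B knockdown, against 324, 345 and 348 CPM in Control, where replicate 1 overlapped, and its call (0.13, adjusted p = 0.0211) was lost without replicate 2 (0.06, adjusted p = 0.242), without Control replicate 1 (0.10, adjusted p = 0.114) and in DESeq2 (adjusted p = 0.207). RPL23, a further MDM2 binder, averaged 346 ± 26.9 CPM in DNMT3B knockdown and 293 ± 6.03 CPM in Control (0.24, adjusted p = 1.1e-05). In DNMT1 knockdown none of the 3 was called (log2 fold changes 0.06, -0.02 and 0.10, adjusted p = 0.192, 0.79 and 0.0524), while RPL23 was called there under 13 of 22 other settings, limma-voom among them (adjusted p = 0.0465).

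MDM2 and CDKN1A, fixed beside them, also differed between the knockdowns. MDM2 averaged 247 ± 5.27 CPM in DNMT1 knockdown, 445 ± 11.8 CPM in DNMT3B knockdown and 333 ± 6.53 CPM in Control, a fall of 0.43 in DNMT1 knockdown and a rise of 0.42 in DNMT3B knockdown on the log2 scale (edgeR adjusted p = 3.32e-12 and 3.39e-12). CDKN1A, the cell cycle inhibitor, averaged 131 ± 6.06 CPM in DNMT1 knockdown, 253 ± 4.4 CPM in DNMT3B knockdown and 146 ± 6.21 CPM in Control, 1.73-fold higher in DNMT3B knockdown. CDKN1A fell by 0.16 in DNMT1 knockdown (adjusted p = 0.000919). MDM4, a relative of MDM2, rose by 0.11 in DNMT3B knockdown (adjusted p = 0.0139).

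Further members named for their place in the ribosome mostly moved little. RPS6, the target of the S6 kinases, averaged 786 ± 23 CPM in DNMT1 knockdown, 857 ± 74.7 CPM in DNMT3B knockdown and 747 ± 18.2 CPM in Control, and was called in DNMT3B knockdown (log2 fold change 0.20, edgeR adjusted p = 0.000194). RPL10A, at 437 ± 11.6, 478 ± 40.4 and 444 ± 9.73 CPM in the same order, was called in DNMT3B knockdown (0.10, adjusted p = 0.036) but not without replicate 2 (0.04, adjusted p = 0.374), Control replicate 1 (adjusted p = 0.0503) or Control replicate 2 (adjusted p = 0.111). RPL3, which reaches towards the catalytic centre, RPL10, which joins the large subunit last, RPSA, also known as the laminin receptor, and RPL41, the shortest protein of the ribosome, passed the test in neither knockdown, except that RPSA was called lower in DNMT3B knockdown without replicate 2 (-0.11, adjusted p = 0.00703). Their log2 fold changes lay between -0.07 and 0.05.

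Levels of the members differ widely when set against coding length. Per kilobase of coding sequence in Control, RPL41 was the highest at 2330 CPM, followed by RPL13A at 1610 and RPS2 at 1490. Reads were counted per gene, so those from outside the coding sequence can enter these values. RPL41 has 75 coding bases in a transcript of 469 bases, so its rank depends on dividing by coding length alone. RPL26L1 (31.6), RPS10 (6.9) and RPL36A (2.26) were the lowest of the tested members. RPS10 shares 77.0% of its exon bases with a read-through transcript, as RPL36A does, so these values depend on how such reads were assigned. Counts of RPS15A (41.5% shared) are uncertain because of overlapping annotation. Symbol-matched pseudogenes, which can take reads from their parents, are annotated for 77 members, 1145 in all, and only 31 of them are rows of the count table.

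Start sequence and snoRNA content were not used by the rule, and no difference between the classes they form was tested. For members, a TOP start here means a C at the annotated RefSeq start and a run of at least 4 pyrimidines. Starts were not measured in these cells, so members can be misplaced between the start classes. In reading these counts and those of the related lists below, 21% of all tested genes were higher and 20.8% lower in DNMT1 knockdown, and 23.1% and 24.6% in DNMT3B knockdown. Without DNMT3B knockdown replicate 2, the shares in that knockdown were 22.2% and 22.9%. Of the 44 tested members with a TOP start, 4 rose (9.09%) and 10 fell (22.7%) in DNMT1 knockdown, and 20 rose (45.5%) and 5 fell (11.4%) in DNMT3B knockdown. Of the 22 tested members with another start, 4 rose (18.2%) and 3 fell (13.6%) in DNMT1 knockdown, and 11 rose (50%) and 1 fell (4.55%) in DNMT3B knockdown. With that replicate left out, 15 members with a TOP start rose (34.1%) and 12 fell (27.3%) in DNMT3B knockdown. Of those with another start, 9 rose (40.9%) and 2 fell (9.09%) in the same fit. RPS21, RPS19, RPLP1 and RPL39, which fell, have runs of 11 bases or more, and so do RPL35 and RPS24, which rose in DNMT3B knockdown. There are 28 members that host snoRNAs in their introns, 60 in all. Of these hosts 3 rose and 3 fell in DNMT1 knockdown (10.7% each way), and 12 rose (42.9%) and 1 fell (3.57%) in DNMT3B knockdown. Without replicate 2 of DNMT3B knockdown, 10 hosts rose (35.7%) and 4 fell (14.3%) there.

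Length and base composition were also set against the changes. Over the 81 members, the log2 fold change correlated with coding length at r = -0.05 in each knockdown against Control. The log2 difference of DNMT1 from DNMT3B knockdown correlated with transcript GC content at r = 0.41 (rho = 0.5) over the 81 members and at 0.11 (rho = 0.12) over 14085 other coding genes. These points are genes of the same 9 libraries and are not independent. The part of GC content in the difference was not tested. In each bin of coding length that held at least 10 members, the members' median log2 fold change in DNMT3B knockdown was 0.08 to 0.12, against -0.03 to -0.01 over other coding genes of that length.

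The related genes of ribosome production did not all follow the ribosomal proteins. Among 24 other mRNAs with a TOP start, translation factors for the most part, 2 rose (8.33%) and 3 fell (12.5%) in DNMT1 knockdown, against 21% and 20.8% of all tested genes. In DNMT3B knockdown 12 rose (50%) and 3 fell (12.5%), against 23.1% and 24.6%, or 10 and 4 without its replicate 2, with median log2 fold changes of -0.02 and 0.09. PABPC1, the poly(A)-binding protein, averaged 2780 ± 14.9 CPM in DNMT1 knockdown, 3230 ± 135 CPM in DNMT3B knockdown and 2550 ± 41.7 CPM in Control and rose in both (0.13 and 0.34, edgeR adjusted p = 0.00272 and 7.36e-10). EIF3D, a subunit of the initiation factor that binds the small subunit, averaged 285 ± 3.14, 360 ± 7.98 and 288 ± 5.14 CPM in the same order and rose in DNMT3B knockdown (0.32, adjusted p = 8.77e-10). EEF1D and FAU, which encodes a small-subunit protein fused to a ubiquitin-like one, fell there (-0.16 and -0.14, adjusted p = 0.000664 and 0.00692). RPL36AL, a near copy of RPL36A, fell in DNMT1 knockdown (-0.10, adjusted p = 0.0385).

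Many assembly factors fell in DNMT1 knockdown. Of 90 tested factors, 4 rose and 50 fell (55.6% lower, median log2 fold change -0.12), where 20.8% of all tested genes were lower. In DNMT3B knockdown 33 rose (36.7%) and 13 fell (14.4%, median 0.04), against 23.1% and 24.6% of all tested genes, or 29 and 15 without its replicate 2. NIP7, a factor of pre-rRNA processing, averaged 56.9 ± 1.13 CPM in DNMT1 knockdown, 67.7 ± 1.45 CPM in DNMT3B knockdown and 74.1 ± 0.131 CPM in Control (SD, n = 3 each), a fall of 0.38 in DNMT1 knockdown and 0.13 in DNMT3B knockdown (edgeR adjusted p = 1.24e-09 and 0.0045). DDX21, a nucleolar helicase, averaged 368 ± 7.95, 461 ± 20.8 and 453 ± 11.4 CPM in the same order and fell by 0.30 in DNMT1 knockdown (adjusted p = 2.84e-08). SBDS, which frees the large subunit for joining and is mutated in Shwachman-Diamond syndrome, averaged 46.6 ± 1.04 CPM in DNMT1 knockdown, 70.4 ± 1.24 CPM in DNMT3B knockdown and 54.9 ± 0.323 CPM in Control. Its groups did not overlap, and it was the factor with the smallest adjusted p between the knockdowns (log2 difference -0.60, adjusted p = 1.46e-13). NOC4L and DDX10 rose in both knockdowns (0.30 and 0.34 in DNMT1 knockdown, 0.52 and 0.38 in DNMT3B knockdown).

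Of 15 genes of RNA polymerase I, which transcribes the rRNA, 1 rose (6.67%) and 8 fell (53.3%) in DNMT1 knockdown, against 21% and 20.8% of all tested genes. In DNMT3B knockdown 4 rose (26.7%) and 5 fell (33.3%), near the 23.1% and 24.6% of all tested genes, or 4 and 4 without its replicate 2. UBTF, the factor that holds rRNA genes open for transcription, was the one that rose in DNMT1 knockdown and fell in DNMT3B knockdown. It averaged 288 ± 4.82 CPM in DNMT1 knockdown, 203 ± 7.05 CPM in DNMT3B knockdown and 253 ± 2.7 CPM in Control (log2 fold changes 0.19 and -0.31, edgeR adjusted p = 1.98e-05 and 3.38e-09). RRN3, which readies the polymerase for initiation, averaged 122 ± 4.09, 133 ± 5.74 and 144 ± 4.08 CPM in the same order and fell in both (-0.24 and -0.12).

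Of 17 genes of the mTORC1 and LARP1 axis, 2 rose (11.8%) and 3 fell (17.6%) in DNMT1 knockdown, and 4 rose (23.5%) and 3 fell (17.6%) in DNMT3B knockdown, near or below the shares of all tested genes (21% and 20.8%, and 23.1% and 24.6%). Without DNMT3B knockdown replicate 2, 6 rose (35.3%) and 3 fell (17.6%) in that knockdown. The share that rose was then above that of all genes tested in that fit (22.2% higher and 22.9% lower). Single genes are given for their own values. LARP1, which binds TOP starts, averaged 631 ± 13.1 CPM in DNMT1 knockdown, 686 ± 8.37 CPM in DNMT3B knockdown and 699 ± 11 CPM in Control and fell in DNMT1 knockdown (-0.15, edgeR adjusted p = 0.000353). RPS6KB1, the S6 kinase, averaged 132 ± 4.01, 130 ± 3.74 and 154 ± 3.64 CPM in the same order and fell in both (-0.22 and -0.25, adjusted p = 6.93e-06 and 6.49e-07). EIF4EBP2, which holds back cap-dependent initiation, was 1.24-fold higher in DNMT1 than in DNMT3B knockdown (adjusted p = 2.31e-09).

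**Figure D5:**
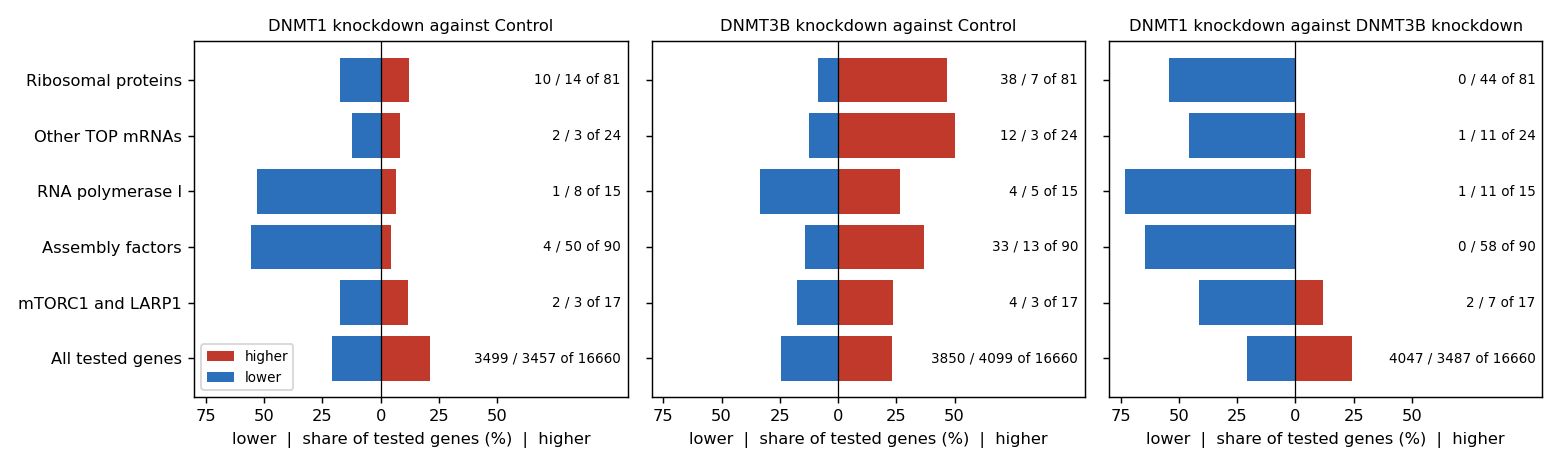
Share of tested genes called higher (red, to the right) or lower (blue, to the left) by edgeR at an adjusted p below 0.05 in 3 comparisons, for the ribosomal proteins, 4 related lists and all 16660 tested genes; numbers give genes higher / lower of those tested. In DNMT1 knockdown against Control 50 of 90 assembly factors and 14 of 81 ribosomal protein genes are lower.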

How the data were processed

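Total RNA was depleted of rRNA and sequenced in 9 libraries of HT29 cells. The deposited values are raw counts of reads for each gene symbol in a single table, not scaled by the authors. The submitters' processing notes name STAR, featureCounts and DESeq2 and the build GRCh38 (hg38). Versions, annotation and strand use were not given in the sources used here, so overlapping genes and genes with near-identical copies have uncertain counts. Genes kept by filterByExpr were scaled by TMM and fitted with edgeR 4.0.16 in R 4.3.3 (quasi-likelihood, all 9 libraries, 6 residual degrees of freedom). The common dispersion gave a biological coefficient of variation of 2.96%. Calls used Benjamini-Hochberg adjustment over the 16660 genes tested, with a threshold of 0.05, and every adjusted p comes from edgeR unless another tool is named. Depth was 18.8 to 33.7 M counts per library (M is 1e6). Replicates of a group differed beyond sampling noise, with a chi-square of 1.75 to 3.52 per degree of freedom, and none was counted as a duplicate. Alternatives were DESeq2 1.42.0, limma-voom (limma 3.58.1), other scalings and filters, fits of only the groups compared, length offsets, a replicate block and leaving out each library. Scaling to the family's own counts, the coding length offset and counts by class without DNMT3B knockdown replicate 2 were chosen after seeing the data. The fits were tested on simulated data. Intervals and the floor of 3 counts cover counting error only.

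The members and gene lists were chosen with earlier results of these data known. Named members were the 5 largest called rises and falls in each knockdown, the 4 largest called differences each way between the knockdowns, members called with each knockdown, and members fixed for a known role or a paralogue. From each related list up to 3 called genes per direction and comparison, with the smallest adjusted p, could be named. Gene models are from GENCODE (GRCh38), which held 24269 of 25886 symbols (93.75%) and all 84 members, and start sequences are from RefSeq (GRCh38.p14). Values of a few single genes are not reported here, although those genes stay in the counts and sums.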

Additional observations from a re-analysis of the deposited data

Results flagged for a closer look

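Rows named as ribosomal protein pseudogenes lie outside the family rule, and 8 of their comparisons with Control showed a signal above the Control level. Of 31 such rows 21 were tested. In DNMT1 knockdown 2 rose and 2 fell by edgeR, where 21% of all tested genes were higher and 20.8% lower. In DNMT3B knockdown 6 rose and 4 fell, where 23.1% of all tested genes were higher and 24.6% lower. The largest signal was RPLP0P2 in DNMT3B knockdown, at 4.42, 4.69 and 4.98 CPM against 1.82, 1.86 and 1.57 CPM in Control (log2 fold change 1.42), while it stood at 1.48 ± 0.122 CPM in DNMT1 knockdown (SD, n = 3). RPL13AP20 averaged 5.42 ± 0.129 CPM in DNMT1 knockdown, 9.05 ± 0.884 CPM in DNMT3B knockdown and 4 ± 0.407 CPM in Control, with log2 fold changes of 0.44 in DNMT1 knockdown and 1.17 in DNMT3B knockdown. Their parent genes did not move alike, since RPLP0 had no call in either knockdown and RPL13A was called lower in DNMT1 knockdown. RPL23AP53 was higher by 0.15 in DNMT1 knockdown and by 0.22 in DNMT3B knockdown. In DNMT3B knockdown RPS10P7 was higher by 0.66, RPL23AP82 by 0.38 and RPL32P3 by 0.21, the last without a call when replicate 2 was left out (adjusted p = 0.12). The 4 called falls in DNMT3B knockdown were in RPL21P28 (-1.02), RPL13P5 (-0.57), RPSAP52 (-0.45) and RPS16P5 (-0.3). Reads of a pseudogene and of its parent can be near-identical, and how reads mapping to both were counted is not given in the sources used here.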

How the results depend on the processing

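With DESeq2, 8 members in place of 14 were lower in DNMT1 knockdown against Control and 3 in place of 7 in DNMT3B knockdown. With the coding length offset, 17 in place of 10 were higher in DNMT1 knockdown. Scaled to the family's own counts, 12 were higher and 13 lower in DNMT3B knockdown, and 1 was higher and 4 lower in DNMT1 against DNMT3B knockdown, since that scaling takes out the family's common change. Leaving out 1 library at a time gave 8 to 15 higher and 10 to 19 lower in DNMT1 knockdown, 29 to 55 higher and 4 to 15 lower in DNMT3B knockdown, and 0 to 3 higher and 22 to 61 lower between the knockdowns. In DNMT3B knockdown 55 were higher without its replicate 1, while 4 were lower without its replicate 1 or without Control replicate 3. The share of counts ran from 2.99 to 3.05% in DNMT1 knockdown, 3.12 to 3.33% in DNMT3B knockdown and 2.98 to 3.04% in Control. Counts called in every such fit were 8 higher and 10 lower in DNMT1 knockdown, 29 and 4 in DNMT3B knockdown, and 19 lower between the knockdowns. Replicate numbers gave no sign of pairing the samples. Same-numbered libraries correlated at -0.267 to 0.302 in their deviations from the group means, and other-numbered ones at -0.319 to 0.3. With 3 libraries per group, such deviations cannot exclude a pairing. With the replicate number as a block, 10 rose and 14 fell in DNMT1 knockdown, 38 and 7 in DNMT3B knockdown, and 0 and 43 between the knockdowns. No called value changed direction, while 29 differences of named members without a call changed sign under at least 1 setting. Of 5607 values of single named genes under other settings, 195 lost and 101 gained a call, and 5311 kept their side of the threshold. Depth limits RPL36A, RPS10 and the paralogues at or near 0 counts. Without DNMT3B knockdown replicate 2, 22.2% of all genes tested were higher and 22.9% lower in that knockdown, against 23.1% and 24.6% with all libraries. Shares of all tested genes under the remaining settings are not given here. Member counts under those settings therefore cannot separate a change in the family from a change in calls over all genes.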
